A study of Rattus norvegicus with 8 samples.

Results

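Transcripts of 10 genes of Notch signalling were followed in primary cultures of rat semicircular canal duct (SCCD) epithelium with and without dexamethasone: the receptors Notch1, Notch2 and Notch3, the ligands Jag1, Jag2 and Dll1, the repressor Hes1, and Id1, Id2 and Id3. All probe sets that the array annotation, the current symbol or a synonym assigns to these genes were taken, which gave 12 of the 15866 probe sets of the deposited table, for 10 of the 10411 genes with a symbol of their own. The SCCD lines part of the vestibular labyrinth, and the cultures came from neonatal Wistar rats and were grown on permeable supports. Control cultures (n = 4) were untreated and the others (n = 4) received 100 nM dexamethasone, a synthetic glucocorticoid, with 1 Affymetrix array per sample analysed here. The time of exposure before the arrays is not given in the sources used here. Nor do the sources say whether the arrayed cultures came from separate dissections, so the p-values cover only the spread among these samples, which may be technical.

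In Notch signalling, a ligand of the Jagged or Delta type on 1 cell binds a Notch receptor on its neighbour. The receptor is then cut by the protease ADAM10 and by gamma-secretase, and its freed intracellular domain enters the nucleus, where it joins RBPJ and a Mastermind protein and switches on repressors of the HES and HEY families. In the inner ear the pathway marks out sensory patches, with Jag1 as an early ligand there, and keeps neighbouring cells from all becoming hair cells. ID proteins have a helix-loop-helix but no DNA-binding region, so they hold E proteins away from DNA, and their genes are classical targets of bone morphogenetic proteins (BMPs).

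For none of the 8 genes that could be tested did the difference between the groups pass the threshold. Of the 12 probe sets, 10 averaged at least 100 over the 8 arrays and were tested, and they stand for 8 genes, while those of Notch2 and Dll1 were under this filter. Of the 10, 0 passed at a Benjamini-Hochberg adjusted p under 0.05 (limma), against 279 of the 10368 probe sets tested in all (2.69%), and 1, Jag1, had an unadjusted p under 0.05, against 16.1% of all probe sets tested. The control and dexamethasone signals overlapped for all 10, while 11.0% of all probe sets tested showed no overlap. The median log2 fold change was 0.06 over the 10 probe sets and -0.02 over all probe sets tested. The median size of the log2 fold change, without its sign, was 0.24 for the 10 and 0.16 for all. The 10 probe sets also varied more within a group, with a median SD of 0.31 on the log2 scale against 0.23 over all probe sets tested.

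**Figure D1:**
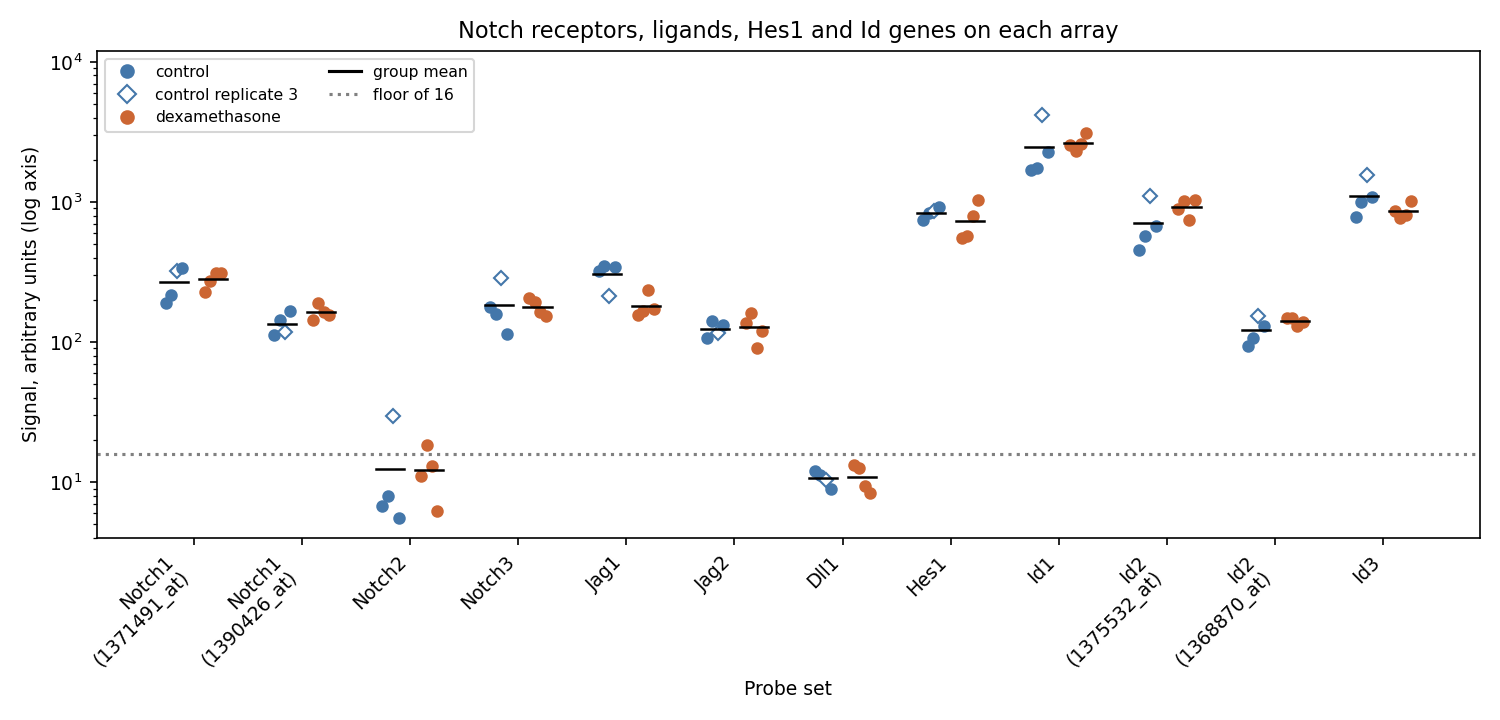
Signal of each probe set on each array in arbitrary units on a log axis, with 4 control arrays (blue, control replicate 3 as an open diamond) and 4 dexamethasone arrays (orange), the group mean (black line) and the floor of 16 (dotted line). Notch2 and Dll1 lie at or near the floor, and control replicate 3 is the highest control array for Id1, Id2, Id3 and Notch3 and the lowest for Jag1.

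Epithelial markers were strong in both groups. The 8 markers, among them the adhesion proteins Cdh1 and Epcam and the keratins Krt8, Krt18 and Krt19, had signals of 2120.1 to 13059. Of these, Krt18 fell by 0.47 on the log2 scale (limma's adjusted p = 0.0300). Sgk1, a kinase induced by glucocorticoids, rose by 3.19 on the log2 scale (SE 0.15, limma's adjusted p = 1.09e-06). As deposited, replicates 1 and 2 of both groups had a trimmed mean signal of 500.1 and replicates 3 and 4 one of 202 to 336, so every array was rescaled to 500. These array sets are not named in the labels. Control replicate 3 needed the largest factor, 2.48, and its beta-actin ratio, the 3' signal over the 5' signal as a measure of 3' bias, was the highest at 13.7. The other control arrays had ratios of 8.10 to 9.60, and those with dexamethasone 6.17 to 8.07. Every control array was thus above every dexamethasone array, so a fit with this ratio as a covariate cannot fully separate it from the treatment. The same ratio for GAPDH overlapped between the groups, with 2.10 to 3.79 in control and 2.14 to 3.18 with dexamethasone. As a rough guide to detection, 59 probe sets of genes of other tissues were used, whose 95th percentile lay between 140.4 and 255 on the arrays.

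Jag1, the ligand that marks the prosensory parts of the developing ear, had the smallest p of the group. Its signals were 321, 348, 211 and 341 on control replicates 1 to 4, and 155, 166, 234 and 173 on dexamethasone replicates 1 to 4. The 3 higher control arrays lay above every dexamethasone array, and control replicate 3 lay within the range of the dexamethasone arrays. The control mean was 305 ± 63.7 (SD, n = 4) and the dexamethasone mean 182 ± 35.2 (SD, n = 4). The log2 fold change of -0.74 (SE 0.20, 95% interval -1.17 to -0.30) did not pass the test (limma's adjusted p = 0.0778). An exact permutation test of the Jag1 log2 signals gave a two-sided p = 0.0571, where 4 arrays against 4 can give no p below 0.0286. In such bulk samples, fewer cells of a type and less RNA per cell cannot be told apart. Of 6 markers of hair cells and supporting cells 2 were measured, and both were above the level of genes of other tissues on no array. The part of these cells in the Jag1 signals was not tested. Without control replicate 3, the Jag1 log2 fold change was -0.90 and passed the test (limma's adjusted p = 0.0209), where 2.19% of all probe sets tested passed. Leaving out control replicate 2 instead brought it to -0.66 (limma's adjusted p = 0.190), the value nearest to 0 on leaving out any 1 array. The Jag1 log2 fold change passed on leaving out no other array. Adjusted for the beta-actin ratio (log2) it was -1.01 (limma's adjusted p = 0.161), where 0.627% of all passed.

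The promoter of Jag1 is shown because this gene lay nearest to the threshold. The window runs from 250 bases before to 50 bases after the gene's start (RefSeq, GRCr8, chr3:144894834-144895133, minus strand), is written 5' to 3', and has in capitals the match to GTCTAG, a SMAD-binding motif, here on the opposite strand.
Jag1: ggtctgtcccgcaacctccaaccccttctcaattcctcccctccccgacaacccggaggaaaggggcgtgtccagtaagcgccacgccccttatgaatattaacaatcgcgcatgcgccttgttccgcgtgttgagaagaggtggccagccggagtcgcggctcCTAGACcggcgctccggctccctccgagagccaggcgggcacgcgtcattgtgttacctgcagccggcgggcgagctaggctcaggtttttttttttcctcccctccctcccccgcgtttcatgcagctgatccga
This motif was searched on both strands, and 8.66% of the 33469 promoters of this length hold it. Of the 10 genes, all matched to a promoter, only Jag1 had it.

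The 3 genes whose signals followed Jag1 most closely over the 8 arrays were Pdlim7 and Palld, which bind the actin cytoskeleton, and Sytl2, which acts in vesicle traffic. Likeness was measured as the root mean square difference of the log2 signals, each gene centred on its own mean. It was 0.14 for Pdlim7, 0.16 for Sytl2 and 0.17 for Palld, against a median of 0.50 over all genes. The log2 fold change was -0.56 for Pdlim7 (limma's adjusted p = 0.0795) and -0.46 for Sytl2 (limma's adjusted p = 0.162). Palld fell by 0.68 on the log2 scale and passed the test (limma's adjusted p = 0.0297). Likeness took in the difference between the groups, so these falls follow in part from how the 3 genes were chosen.

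Jag2, the second Jagged ligand, showed no difference past the test. Its signals were 108, 140.5, 117 and 133 on the control arrays and 137, 161, 91.3 and 121 on the dexamethasone arrays, so that the dexamethasone arrays enclosed the control arrays. The log2 fold change of Jag2 was 0.01 (SE 0.22, 95% interval -0.47 to 0.49, limma's adjusted p = 0.986). Dll1, the Delta-type ligand that signals between neighbouring cells in the developing ear, had signals of 8.38 to 13.2, under the floor of 16 on all 8 arrays, and no fold is given for it. The signals of Jag2 and Dll1 were above the level of genes of other tissues on 0 of 8 arrays, and that of Jag1 on 5. Jag1 was not above it on control replicate 3 or on dexamethasone replicates 1 and 2.

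Among the receptors, Notch1 was measured by a pair of probe sets and Notch3 by 1. The Notch1 probe set 1371491_at had signals of 191, 218, 323 and 340.0 on the control arrays and 229, 272, 309.8 and 313 on the dexamethasone arrays. It was above the level of genes of other tissues on 8 of 8 arrays, and in both groups replicates 1 and 2 were lower than replicates 3 and 4. The change on the log2 scale was 0.10 (SE 0.20, 95% interval -0.34 to 0.54, limma's adjusted p = 0.861). The other Notch1 probe set, 1390426_at, had signals of 112, 143, 118 and 166 in control and 143, 191, 165 and 155 with dexamethasone, above the level of genes of other tissues on 3 of 8 arrays. On the log2 scale the difference was 0.29 (SE 0.19, 95% interval -0.13 to 0.71, limma's adjusted p = 0.515), so neither probe set passed the test.

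Notch3, a receptor best known from the smooth muscle of vessels, had signals of 178, 159, 287 and 114 on the control arrays and 205, 193, 164 and 153 on the dexamethasone arrays. The control arrays were spread more widely than the dexamethasone arrays and enclosed all of them, and 4 of the 8 signals were above the level of genes of other tissues. The Notch3 log2 fold change was 0.03 (SE 0.25, 95% interval -0.53 to 0.58, limma's adjusted p = 0.975). Of 8 markers of smooth muscle and pericytes, 5, among them Myh11, Rgs5 and Pdgfrb, were above the level of genes of other tissues on no array, and 2, the actin Acta2 and the actin-binding protein Tagln, on every array. The summed signal of these markers was 4978 to 5932 in control and 4348 to 5087 with dexamethasone, and their part in the signals of Notch3 and Jag1 was not tested. Of 6 endothelial markers measured, Kdr, a receptor for vascular endothelial growth factor, rose by 2.00 and Flt1, another such receptor, fell by 1.96 on the log2 scale, and 3, Pecam1, Tie1 and Vwf, were above the level of genes of other tissues on no array. The summed endothelial signal was 1153 to 1397 in control and 2947 to 3561 with dexamethasone. Kdr alone, with 492 to 844 and 2528 to 3028, made up the rise of this sum, and the part of these cells in the Notch and Jag1 signals was not tested. The summed signal of 4 macrophage markers was 411 to 618 in control and 623 to 1006 with dexamethasone. Of the 2 tested, Cd14 had a log2 fold change of 0.96 (limma's adjusted p = 0.0809) and the other one -0.15. Cd68 and Ptprc were above the level of genes of other tissues on no array. For 7 fibroblast markers the summed signal was 10461 to 12610 and 8422.5 to 12157, with -0.58 for the collagen Col1a2 (limma's adjusted p = 0.261). The part of either list was not tested. Notch2 had signals of 5.51 to 29.5, under the floor on 6 of 8 arrays, with control replicate 3 highest, and no fold is given for it.

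Hes1 is the classical target of the Notch receptors, a repressor that also shuts off its own gene. Its promoter is shown because RBPJ acts there, with the RBPJ core TGGGAA in capitals (RefSeq, GRCr8, chr11:84212996-84213295, minus strand, 5' to 3').
Hes1: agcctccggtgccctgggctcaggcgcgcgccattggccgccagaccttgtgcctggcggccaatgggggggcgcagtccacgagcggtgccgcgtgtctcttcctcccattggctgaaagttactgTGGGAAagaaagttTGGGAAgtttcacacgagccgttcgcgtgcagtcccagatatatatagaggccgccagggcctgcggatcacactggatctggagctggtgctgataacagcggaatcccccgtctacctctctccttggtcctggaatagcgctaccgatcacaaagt
The window holds 2 such cores, at bases 128 to 133 and 142 to 147 counted from its 5' end, and 4 N boxes (CACNAG), the motif that HES proteins bind. At least 1 RBPJ core on either strand was found in the promoters of Hes1, Dll1 and Notch3, 3 of the 10 genes, and in 25.7% of all promoters. At least 1 N box was found in 4 of the 10 and in 43.1% of all promoters, and at least 1 E box (CANNTG), the motif of the E proteins, in 6 of the 10 and in 72.1% of all. Of longer RBPJ sites only the form CGTGGGAA, which contains the core, was searched. It was found in 0 of the 10 and in 0.723% of all promoters. The first core of Hes1 follows the bases TG, and the form TGTGGGAA was not searched. The palindromic glucocorticoid response element was found in 0 of the 10 and in 0.0149% of all promoters.

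The signals of Hes1 were 748, 827, 864 and 919 on the control arrays and 549, 570.0, 793 and 1031 on the dexamethasone arrays. The control arrays lay close together, while the dexamethasone arrays included both the lowest and the highest signals. All were above the level of genes of other tissues. The control mean of Hes1 was 839 ± 71.7 (SD, n = 4) and the dexamethasone mean 736 ± 226 (SD, n = 4). Its fitted log2 fold change was -0.24 (SE 0.19, 95% interval -0.64 to 0.17, limma's adjusted p = 0.590). It was -0.11 without dexamethasone replicate 1, -0.13 without replicate 2 and -0.41 without replicate 4 of that group, and none of these passed. Within replicates 1 and 2 the Hes1 value was -0.49 (limma's adjusted p = 0.0814) and within replicates 3 and 4 it was 0.02.

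The Id genes had signals above the level of genes of other tissues on all 8 arrays, except at 1 of the Id2 probe sets. Id1 had signals of 1679, 1744, 4163 and 2269 on the control arrays and 2566, 2312, 2593 and 3102 on the dexamethasone arrays. Control replicate 3 was the highest array of all, and the other 3 control arrays were below every dexamethasone array. The control mean of Id1 was 2464 ± 1163 (SD, n = 4) and the dexamethasone mean 2643 ± 331 (SD, n = 4). Its log2 fold change was 0.20 (SE 0.24, 95% interval -0.32 to 0.72, limma's adjusted p = 0.744), and 0.48 without control replicate 3 (limma's adjusted p = 0.101). Leaving out control replicate 1 or 2 instead brought the Id1 value to 0.047 and 0.065, the lowest on leaving out any 1 array.

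Id2 showed a similar order of arrays at its probe set 1375532_at. The signals were 456, 575, 1109 and 671 in control and 885, 1020.5, 743 and 1026 with dexamethasone, so that 3 control arrays were below all dexamethasone arrays and control replicate 3 was above them. The change on the log2 scale was 0.45 (SE 0.23, 95% interval -0.05 to 0.96, limma's adjusted p = 0.364), and 0.70 without control replicate 3 (limma's adjusted p = 0.0572). Without control replicate 1 it was 0.27 (limma's adjusted p = 0.602). The other Id2 probe set, 1368870_at, had signals of 93.2 to 153 in control and 129.5 to 148 with dexamethasone, and was above the level of genes of other tissues on 0 of 8 arrays. On the log2 scale the difference was 0.25 (SE 0.20, limma's adjusted p = 0.611), and 0.13 to 0.37 on leaving out control replicate 1 or 3. The Id2 probe sets were the most alike of the 45 pairs among the tested probe sets, with a root mean square difference of 0.213 on the log2 scale. Nearly equal was the next pair, the Notch1 probe set 1371491_at and the Id2 probe set 1368870_at, at 0.214. Id1 and the Id2 probe set 1375532_at followed as the third pair, at 0.222.

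Id3 differed from Id1 and Id2 in the sign of its value. Its signals were 784, 1005, 1545 and 1091 in control and 864, 769, 810.0 and 1023 with dexamethasone, with control replicate 3 again the highest. The control mean of Id3 was 1106 ± 319.6 (SD, n = 4) and the dexamethasone mean 867 ± 111 (SD, n = 4). Its fitted log2 fold change was -0.32 (SE 0.18, 95% interval -0.72 to 0.08, limma's adjusted p = 0.444), and -0.14 without control replicate 3. With the beta-actin ratio as a covariate the values were 0.78 for Id1, 0.88 for the Id2 probe set 1375532_at and 0.00066 for Id3 (limma's adjusted p = 0.253, 0.287 and 0.999). Control replicate 3 was the highest of the 8 arrays for 5 of the 10 tested probe sets and for 23.5% of all probe sets tested.

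The promoters of Id1 and Id3, 2 of the 10 genes, hold the single arm of the glucocorticoid response element, AGAACA, as do 20.7% of all promoters. That of Id1 is shown with this arm in capitals, on the opposite strand (RefSeq, GRCr8, chr3:161671314-161671613, plus strand, 5' to 3').
Id1: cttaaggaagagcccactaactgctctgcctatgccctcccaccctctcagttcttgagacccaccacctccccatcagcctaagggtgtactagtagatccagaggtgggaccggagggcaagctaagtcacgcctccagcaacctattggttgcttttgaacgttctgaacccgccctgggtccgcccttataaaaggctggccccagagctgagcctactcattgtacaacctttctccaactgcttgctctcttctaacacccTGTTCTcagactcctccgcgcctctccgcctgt
The other SMAD motif, GGCGCC, was found in 0 of the 10 promoters and in 11.0% of all.

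**Figure D2:**
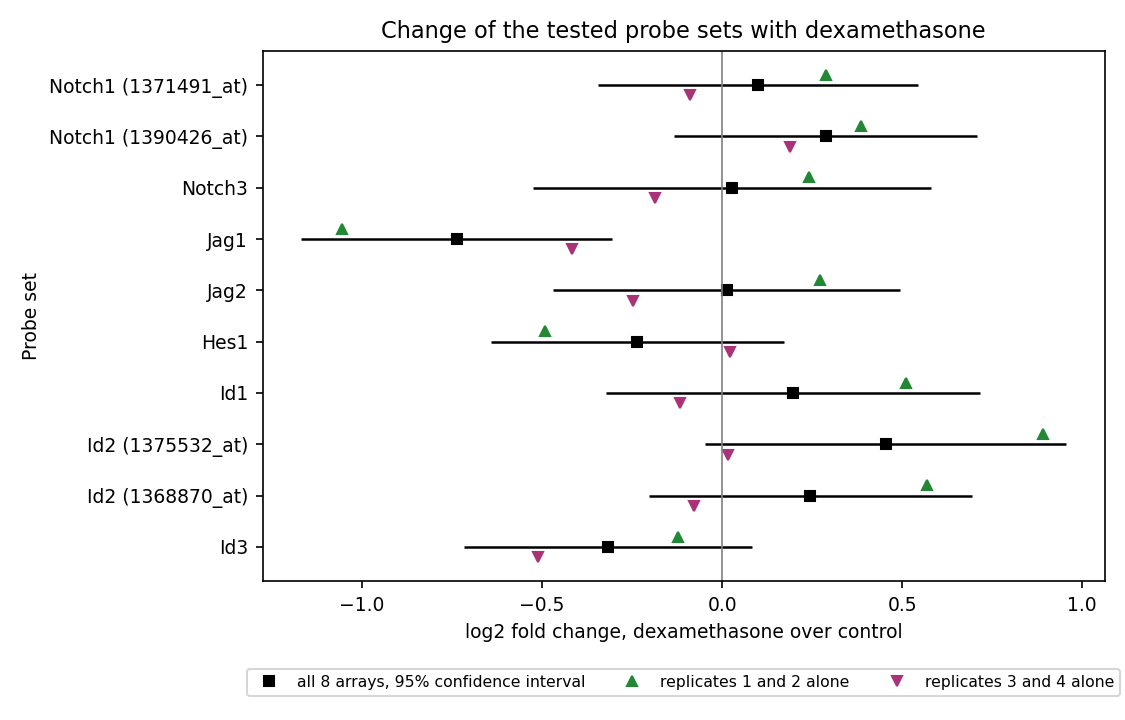
Log2 fold change of the 10 tested probe sets with dexamethasone over all 8 arrays (squares, with the 95% confidence interval from limma as lines), and within replicates 1 and 2 (upward triangles) and replicates 3 and 4 (downward triangles). The interval of Jag1 alone leaves out 0, and 9 of the 10 values lie farther from 0 in replicates 1 and 2 than in replicates 3 and 4.

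The values of several of these genes were larger in replicates 1 and 2, whose signals were deposited at the target scale. In that set alone 3 of the 10 probe sets passed the test, 2 higher and 1 lower, against 4.24% of all probe sets tested, 2.76% higher and 1.49% lower. Jag1 fell by 1.06, Id1 rose by 0.51 and the Id2 probe set 1375532_at rose by 0.89 on the log2 scale (limma's adjusted p = 0.0134, 0.0266 and 0.0128). The Jag1 signals on dexamethasone replicates 1 and 2, 155 and 166, were under the level of genes of other tissues. In replicates 3 and 4 these 3 probe sets had -0.42, -0.12 and 0.02, and 0 of the 10 passed, against 0.203% of all probe sets tested. In that set 1 of the 10, Id3 with -0.51 against -0.12, was farther from 0 than in replicates 1 and 2. The median size of the log2 fold change over the 10 was 0.44 in the first set and 0.15 in the second, while over all probe sets tested it was 0.17 and 0.21.

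**Figure D3:**
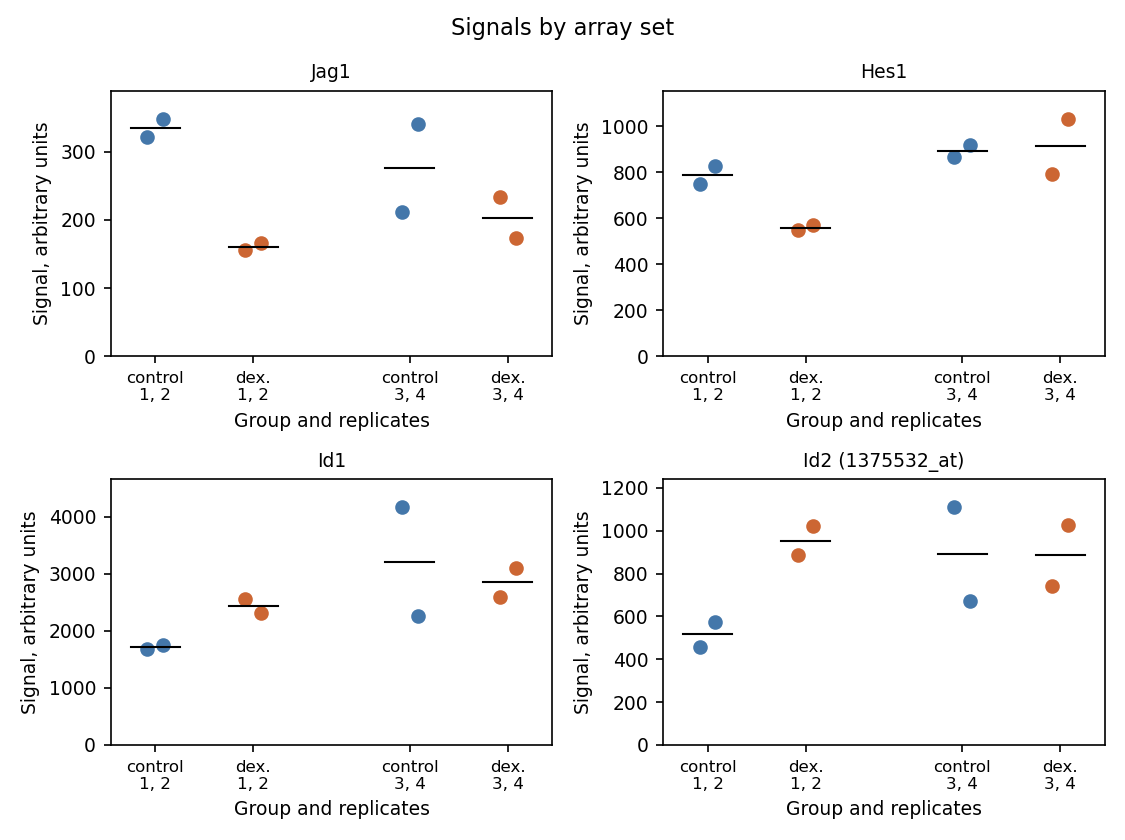
Signals of Jag1, Hes1, Id1 and the Id2 probe set 1375532_at on each array (points, arbitrary units from 0) with the mean of each pair of arrays (line), by group and array set. For all 4 probe sets the group means lie farther apart in replicates 1 and 2 than in replicates 3 and 4. Jag1, Id1 and this Id2 probe set are those that passed in replicates 1 and 2 alone.

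A difference between the array sets was not shown. A term for that difference, added after the data were seen, passed the adjusted threshold for 0 of the 10 probe sets and for 0 of all 10368 (limma), while an unadjusted p under 0.05 was found for 2 of the 10 and for 587 of all (5.66%). The 2 were Hes1, whose log2 fold change was higher by 0.51 in replicates 3 and 4 (SE 0.23), and the Id2 probe set 1375532_at, where it was lower (-0.87, SE 0.35), each with limma's adjusted p = 0.787. For Jag1 the difference was 0.64 (SE 0.36, limma's adjusted p = 0.787). With the array set as a block, Jag1 had an adjusted p = 0.0570 and 0 of the 10 passed, against 5.57% of all probe sets tested.

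The other genes of the pathway were followed as 96 genes in 8 lists, of which 70 had a probe set and 56 were tested, with the probe set of highest mean signal for each gene. Of the 56, 0 were higher and 1 was lower with dexamethasone past the test, against 1.88% higher and 0.81% lower over all probe sets tested, and 8 had an unadjusted p under 0.05, against 16.1% of all probe sets tested. The median log2 fold change of the 56 was 0.06.

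**Figure D4:**
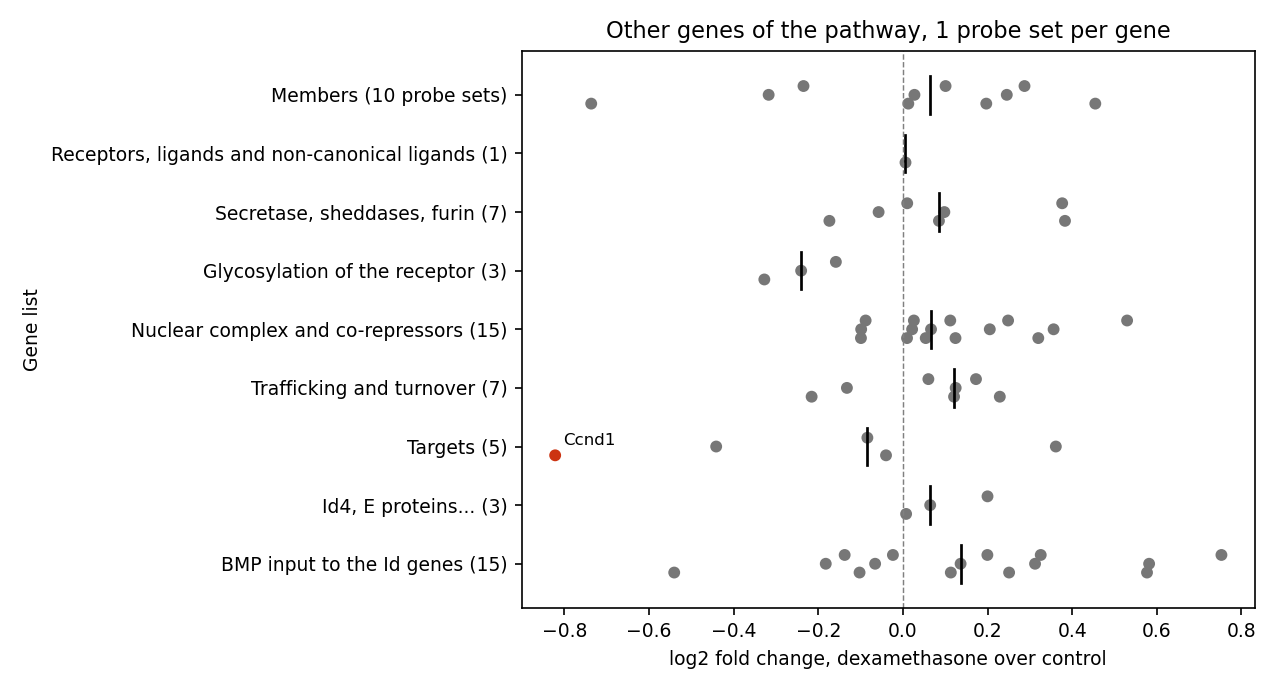
Log2 fold change with dexamethasone of the tested genes of each list (points, number of genes in brackets), with the list's median (black line), and in red the gene past the threshold. Ccnd1 at -0.82 is the only red point, and the medians of the lists run from -0.24 to 0.14.

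The gene that passed was Ccnd1, cyclin D1, which drives cells through the first gap phase and is a target of Notch and of many other pathways. Its signals were 5030.0, 5381, 6651 and 4532 on the control arrays and 2659.6, 2758, 3382 and 3367 on the dexamethasone arrays, without overlap, as for 11.0% of all probe sets tested. It fell by 0.82 on the log2 scale (SE 0.13, limma's adjusted p = 0.00455), and its other probe sets fell by 1.16 and 1.02 (limma's adjusted p = 0.000639 and 0.00212). With the beta-actin ratio as a covariate the value was -0.66 and did not pass (limma's adjusted p = 0.157), nor did it within replicates 3 and 4 (-0.70, limma's adjusted p = 0.272). Over all probe sets tested 0.627% passed with this covariate, which differed between the groups, and 0.203% within replicates 3 and 4. Cdkn1a, the cell cycle inhibitor p21 and the only other target with an unadjusted p under 0.05, had 1982 to 2813 in control and 1483 to 1918 with dexamethasone. For Cdkn1a it was -0.44 on the log2 scale (SE 0.13, limma's adjusted p = 0.118), and it passed with the array set as a block (limma's adjusted p = 0.0293). With the beta-actin covariate it was -0.27.

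The machinery that cuts the receptor and carries its signal showed no change past the test, but these lists are short and 2.69% of all probe sets tested passed. Of the 7 tested genes of the secretase and the sheddases, 5 were above the level of genes of other tissues on all 8 arrays and 0 passed, with log2 fold changes of -0.17 to 0.38. Adam10, which makes the first cut, had signals of 132 to 207 in control and 190.8 to 252 with dexamethasone and a log2 fold change of 0.38 (limma's adjusted p = 0.346). Psen2, a catalytic subunit of gamma-secretase, had 86.4 to 144 and 143 to 186, and also 0.38 (limma's adjusted p = 0.417), which was 0.21 without control replicate 3. Adam10 was above the level of genes of other tissues on 4 of 8 arrays and Psen2 on 2. Of the 15 tested genes of the nuclear complex and its co-repressors 0 passed. The closest was Kat2b, an acetyltransferase that works with the Notch complex, with 794 to 1400.3 in control, 1276 to 1952 with dexamethasone and a log2 fold change of 0.53 (limma's adjusted p = 0.193). Kat2b passed with the array set as a block (limma's adjusted p = 0.0206), and with the beta-actin covariate its value was 0.15 (limma's adjusted p = 0.906). Cir1, a co-repressor of RBPJ, had 671 to 747 and 795 to 882, and 0.25 (limma's adjusted p = 0.260). Its groups did not overlap, as for 11.0% of all probe sets tested. The co-repressor Spen had 0.36 (limma's adjusted p = 0.423), or 0.19 without control replicate 3.

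Genes that feed the Id genes through BMPs had a median log2 fold change of 0.14, and 0 of the 15 tested passed, against 2.69% of all probe sets tested. An unadjusted p under 0.05 (limma) was found for 4 of the 15, against 16.1% of all probe sets tested. Smad7, an inhibitor of this signal, had signals of 144, 199.8, 95.1 and 143 on the control arrays and 217, 241, 246 and 245 on the dexamethasone arrays. The groups did not overlap, as for 11.0% of all probe sets tested, and its log2 fold change was 0.75 (SE 0.21, limma's adjusted p = 0.0923). Smad7 was above the level of genes of other tissues on 5 of 8 arrays, and those not above it were all controls. With the beta-actin ratio as a covariate the Smad7 value was 0.30 (limma's adjusted p = 0.760). Bambi, a decoy receptor, had 256 to 380.2 in control and 185 to 278 with dexamethasone and a log2 fold change of -0.54 (limma's adjusted p = 0.145). The ligands Bmp6, whose groups did not overlap, and Bmp4 had 0.31 and 0.58 (limma's adjusted p = 0.162 and 0.327), and Smad1, which carries the signal to the nucleus, 0.33 (limma's adjusted p = 0.237). In the remaining lists, those of other receptors and ligands, glycosylation, trafficking, and E proteins with Id4, 0 of 1, 0 of 3, 0 of 7 and 0 of 3 tested genes passed. Lists this short can be without a call at the share of 2.69%.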

How the data were processed

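The authors amplified the RNA of 4 control and 4 treated SCCD cultures by repeated in vitro transcription and applied it to Affymetrix rat arrays. The methods name an A and a B array, the sample titles end in A, and only these arrays, 1 per sample, were analysed here. The deposited signal intensities, linear and in arbitrary units, were scaled by the authors, per the labels, to a target of 500. The software that made them is not given in the sources used here. The table holds 15923 probe sets, 57 of them controls, and no detection calls. Because 4 arrays were below the target, each array was rescaled to a trimmed mean of 500 (2% left out at each end). The number of arrays limits the precision. Signals under 16 were set to 16, log2 was taken, and the 10368 probe sets averaging 100 or more were tested in limma 3.58.1 under R 4.3.3 (mean-variance trend, two-sided, Benjamini-Hochberg, threshold 0.05). The procedure was tested on simulated data. Annotation gave 1 symbol to 12783 probe sets, several to 312 and none to 2771.

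Genes of other tissues (57 looked for, 52 with a probe set) gave the guide to detection, which is not a detection call. Promoters came from RefSeq (GRCr8). Named were all 10 genes, other pathway genes past the threshold or among the 12 smallest p, and for Jag1 the 3 most similar genes. The other probe sets of Ccnd1 and the Jag1, Hes1 and Id1 promoters were chosen after values were seen. The members and lists were chosen with earlier results of these data known. Alternatives were other scalings, filters, floors and priors, the replicate number or the array set as a block, each array set alone, the beta-actin ratio as a covariate, leaving out each array, the mean of a gene's probe sets, and other percentiles of the genes of other tissues.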

Additional observations from a re-analysis of the deposited data

Results flagged for a closer look

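Among 48 groups of 4 arrays looked at, which were the control and dexamethasone groups of the 12 probe sets and of 12 other pathway genes, 4 had 1 array apart from the others. Such a comparison flags about 1 in 20 groups by chance. The gap of the outlying array over the range of its group, on the log2 scale, was compared with Dixon's 95% critical value. For Jag1 it was 0.84 for control replicate 3, whose signal of 211 was the lowest of its group. For Psen2 it was 0.88, again for control replicate 3 and the lowest (86.4). For Smad7 and Spen it was 0.85 and 0.94 for dexamethasone replicate 1, the lowest of its group for Smad7 (217) and the highest for Spen (865). Control replicate 3 also had the highest beta-actin 3' to 5' ratio, 13.7, and its part in the Jag1 value was not tested beyond leaving the array out.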

How the results depend on the processing

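The count of 0 among the 10 probe sets held under every scaling, floor, prior and block tried, and with no filter. With the filter at 250 it was also 0, but Jag1 averaged less and was not tested. Nor were Jag2, Notch3, the Notch1 probe set 1390426_at and the Id2 probe set 1368870_at. The count was 3 (Jag1, Id1 and the Id2 probe set 1375532_at) in replicates 1 and 2 alone, and 0 to 1 on leaving out 1 array, where the 1 was Jag1 without control replicate 3. Of 215 values of these probe sets under alternatives, 194 kept their sign and their side of the threshold, 4 newly passed it and 17 turned sign. In replicates 3 and 4 alone the Notch1 probe set 1371491_at had -0.088, Notch3 -0.19, Jag2 -0.25, Hes1 0.021, Id1 -0.12 and the Id2 probe set 1368870_at -0.077 on the log2 scale. With the beta-actin ratio as a covariate Jag2 had -0.13, Id3 0.00066 and Psen2 -0.044. On leaving out 1 array the log2 fold change was -0.047 to 0.23 for the same Notch1 probe set, -0.18 to 0.27 for Notch3 and -0.11 to 0.16 for Jag2. Of the other pathway genes, 0 passed on the signals as deposited, with no filter, in replicates 3 and 4 alone or with the covariate (Ccnd1 was lost), 4 (Ccnd1, Grem1, Bmp2 and Myc) in replicates 1 and 2 alone, 3 (Ccnd1, Cdkn1a and Kat2b) with the array set as a block, 2 (Ccnd1 and Cdkn1a) with the mean of a gene's probe sets, and 1 to 2 on leaving out 1 array, where Smad7 joined without control replicate 2. Over all probe sets the 279 calls became 38 on the signals as deposited, 102 with no filter, 578 with the array set as a block, 440 and 21 in replicates 1 and 2 and replicates 3 and 4 alone, 65 with the covariate, and 180 to 275 on leaving out 1 array (184 and 180 without dexamethasone replicates 1 and 2). With the replicate number as a block 484 of all probe sets, 0 of the 10 and 3 of the other pathway genes (Ccnd1, Cdkn1a and Kat2b) passed. Same-numbered arrays correlated at 0.035 to 0.41 in their deviations from the group means and 4 of 8 arrays correlated best with their own number, so the numbers were not taken as pairs. The cause of these shifts was not tested. The probe sets were above the genes of other tissues 52 times over the arrays at the 95th percentile, 70 times at the 90th and 36 times at the highest signal.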
